A study of Mus musculus with 4 samples.

Results

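The clustered replication-dependent histone genes of the mouse comprised 61 protein-coding genes. They were chosen by position and name, on mm10 chromosome 13 between 21700000 and 23800000 or on chromosome 3 between 96200000 and 96300000, with a symbol starting Hist1, Hist2, H1f, H2ac, H2bc, H3c or H4c. They are 61 of the 21535 protein-coding genes whose start site could be placed. By class they are 6 linker histone H1 genes, 16 H2A, 15 H2B, 12 H3 and 12 H4 genes. They lie in 4 groups: 17 genes over 118 kb, 5 genes over 8.54 kb and 29 genes over 233 kb on chromosome 13, and 10 genes over 50.3 kb on chromosome 3.

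Chromatin accessibility was measured by ATAC-seq, in which the Tn5 transposase tags open DNA, in fixed cells from fore- and hindlimbs of wild-type mouse embryos. There were 2 replicates of stage E10.5 (E for embryonic day; the protocol text names E10) and 2 of E11.5, with no other genotype or treatment. The study concerns the regulation of the limb gene En1. The data are 1 peak list per stage, each named for both replicates, so no value below has a replicate spread, no test between stages was possible and the depth is unknown. The limb tissue is a mixture of cell types, and more cells with open chromatin at a gene cannot be told apart from more open chromatin per cell.

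Each nucleosome wraps DNA around a core of histones H2A, H2B, H3 and H4, and the linker histone H1 binds where the DNA enters and leaves. Cells need a large new supply of these proteins whenever they copy their DNA, and the clustered genes are transcribed in S phase as short messages without introns. Many H2A and H2B genes are arranged head to head, so that they are transcribed away from a shared promoter. The factor NPAT gathers at the clusters in a nuclear body where histone messages are made and processed.

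Of the 61 genes, 60 had an accessible region (a peak of the list) within 1 kb of the start site at E10.5, and the same 60 had one at E11.5. Under the same rule 66.3% of all protein-coding genes had one in the earlier list, 59.9% in the later list, 59.5% in both and 33.4% in neither. The region covered the start site itself in 60 of 61 genes in each list, against 60.0% of all genes in the earlier list and 53.8% in the later. With a −log10 p of at least 5 required of the region, the count was again 60 in each list, against 62.1% and 54.0% of all genes. All 16 H2A, 15 H2B, 12 H3 and 12 H4 genes were among them, and so were 5 of the 6 H1 genes. The exception in both lists was H1f6 (Hist1h1t), which encodes the testis-specific linker histone H1t. None of these shares has a test, since the lists hold no replicates.

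Promoter sequences were examined because the genes share an expression program. RefSeq windows of build GRCm38.p6, from 250 bases before to 50 after the start site, matched 56 of the 61 genes. The genes without an entry were H2bc21, H4c14, H3c7, H2bc4 and H3c1. The sequences below are shown 5′ to 3′ for 3 head-to-head pairs (all bases between the start sites), for the H4 genes H4c9 and H4c2, for H3c2, for the somatic H1f4, and for H1f6, which had no region. Capitals mark exact matches, on either strand, to 5 motifs. TATAAA is the core of the TATA box. The letters CCAAT form the site of the factor NF-Y. The octamer ATTTGCAT is known for H2B promoters. The run GGTCC is found within an H4 promoter element. The H1 box AAACACA is known for linker histone promoters. The H1 box was added after the sequences were seen.
H2ac15 to H2bc15 (chr13:21753913-21754075, plus strand): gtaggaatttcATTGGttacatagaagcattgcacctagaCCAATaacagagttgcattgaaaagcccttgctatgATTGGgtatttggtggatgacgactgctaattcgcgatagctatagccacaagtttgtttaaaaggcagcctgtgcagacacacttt
H2ac12 to H2bc12 (chr13:22035644-22035820, plus strand): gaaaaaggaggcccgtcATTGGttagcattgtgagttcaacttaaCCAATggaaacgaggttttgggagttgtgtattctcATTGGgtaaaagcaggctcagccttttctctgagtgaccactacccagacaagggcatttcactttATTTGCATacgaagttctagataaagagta
H2ac8 to H2bc8 (chr13:23571221-23571399, plus strand): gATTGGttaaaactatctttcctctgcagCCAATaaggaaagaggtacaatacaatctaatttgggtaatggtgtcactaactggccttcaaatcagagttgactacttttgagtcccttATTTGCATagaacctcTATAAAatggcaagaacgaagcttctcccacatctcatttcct
H4c9 (chr13:22041363-22041612, minus strand): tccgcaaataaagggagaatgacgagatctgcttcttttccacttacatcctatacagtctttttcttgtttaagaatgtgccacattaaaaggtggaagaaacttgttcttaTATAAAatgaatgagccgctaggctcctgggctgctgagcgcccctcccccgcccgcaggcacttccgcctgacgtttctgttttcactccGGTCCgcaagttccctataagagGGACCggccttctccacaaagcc
H4c2 (chr13:23756687-23756936, plus strand): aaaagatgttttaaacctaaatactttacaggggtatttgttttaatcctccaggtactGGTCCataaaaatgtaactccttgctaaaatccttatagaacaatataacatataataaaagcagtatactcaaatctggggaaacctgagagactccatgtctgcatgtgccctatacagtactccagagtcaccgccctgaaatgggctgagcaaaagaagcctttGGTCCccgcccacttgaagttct
H3c2 (chr13:23752095-23752344, plus strand): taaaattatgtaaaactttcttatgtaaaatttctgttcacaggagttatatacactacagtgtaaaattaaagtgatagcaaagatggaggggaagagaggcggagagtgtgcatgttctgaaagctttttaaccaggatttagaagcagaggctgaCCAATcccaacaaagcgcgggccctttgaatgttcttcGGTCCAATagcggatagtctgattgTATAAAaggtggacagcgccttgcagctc
H1f4 (chr13:23622559-23622808, minus strand): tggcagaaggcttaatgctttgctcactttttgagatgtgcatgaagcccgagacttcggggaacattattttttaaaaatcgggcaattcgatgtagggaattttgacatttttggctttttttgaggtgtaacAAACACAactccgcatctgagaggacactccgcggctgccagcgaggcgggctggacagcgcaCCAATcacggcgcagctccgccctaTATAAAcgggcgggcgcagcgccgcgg
H1f6 (chr13:23695561-23695810, plus strand): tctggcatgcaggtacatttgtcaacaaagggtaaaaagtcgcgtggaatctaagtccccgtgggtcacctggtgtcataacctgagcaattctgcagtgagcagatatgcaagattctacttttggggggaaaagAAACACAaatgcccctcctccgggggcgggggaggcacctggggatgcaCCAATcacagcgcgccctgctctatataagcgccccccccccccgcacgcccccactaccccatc

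CCAAT was found in all 6 H1, 16 H2A, 13 H2B and 10 H3 windows but in 3 of 11 H4 windows. Over all 17492 protein-coding genes with a window, 39.2% held it. In the H3c15 and H3c14 windows the only CCAAT lay after the start site, at positions 14 and 29. Windows of head-to-head pairs overlap, and 8 of the H2A and 8 of the H2B windows held CCAAT copies that were also counted for the partner gene. Counted by place, the 48 histone windows with CCAAT held 99 copies, 28 of them in windows of both partners. GGTCC ran the other way, with 10 of 11 H4 windows and 13 of the other 45, 6 of which shared a copy with a partner, against 48.8% of all windows. The octamer was found in 5 H2A and 5 H2B windows and in 1.72% of all windows. The pair H2ac12 and H2bc12 and the pair H2ac8 and H2bc8 count the same octamer from both sides, so that the 10 windows held 8 octamers by place. The octamer of H2ac6, at -130, lies between its start and that of H2bc4. That of H2ac20, at -200, lies beside the start of H2bc21. H2bc4 and H2bc21 have no window, so copies shared with them were not counted for any motif. TATAAA was found in 57.1% of the 56 histone windows and in 13.3% of all windows, with 5 H2A and 5 H2B windows sharing a copy with the partner. Counted on the strand of the gene only, TATAAA began between positions -45 and -15 from the annotated start in 14 of the 56 histone windows. The share of all windows was 3.08%.

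The H1f6 window resembled those of the somatic H1 genes in part. It held CCAAT at position -65 from the start and the H1 box at position -114, and H1f4 held them at -52 and -115. The H1 box was found in 5 of 6 H1 windows and in 6.16% of all windows. TATAAA was found in 4 of the 6 H1 windows, including that of H1f4, and not in those of H1f6 and H1f2. A match is only letters in a window, and a missing match says only that these letters are not in it. The median GC content was 45.5% for histone windows and 56.3% for all windows, while the ratio of observed to expected CpG was 0.754 against 0.577.

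**Figure D1:**
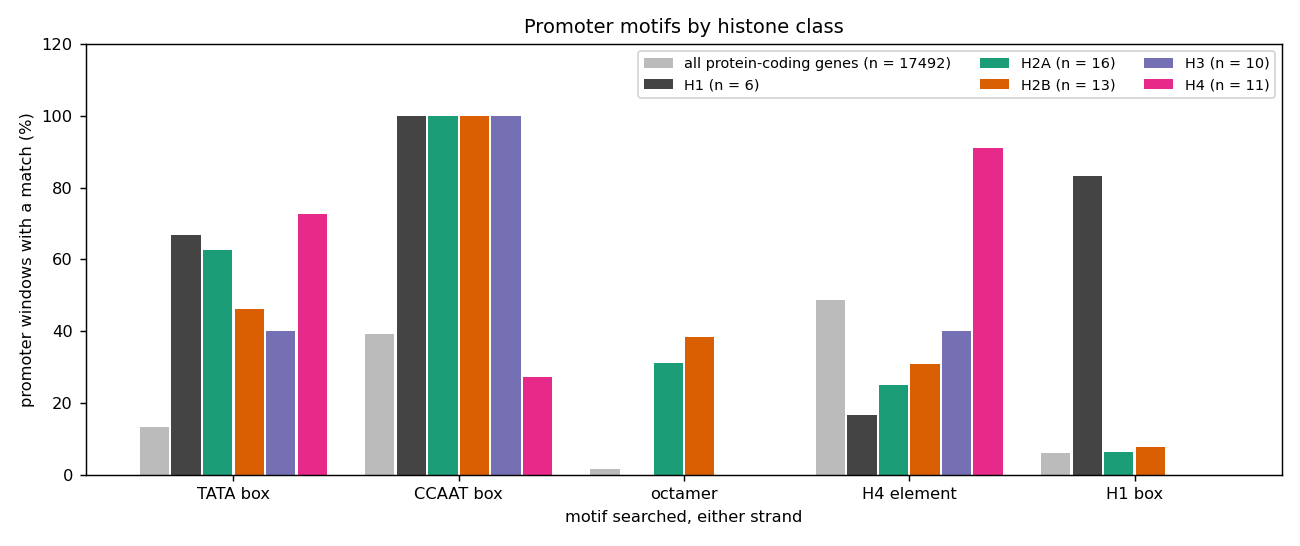
Share of promoter windows of 300 bases with a match to each motif on either strand (vertical axis, percent), for each histone class and for all protein-coding genes. CCAAT was present in every H1, H2A, H2B and H3 window, and GGTCC in 90.9% of H4 windows.

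The genes are short and close together, and several often lay in a single region. At E10.5 the 60 start sites fell into 33 regions: 14 regions held 1 start site, 12 held 2, 6 held 3 and 1 held 4. At E11.5 they fell into 41 regions, of which 25 held 1 start site, 13 held 2 and 3 held 3. A further 5 regions in each list lay within 1 kb without covering a start site. The median width of the regions nearest the start sites was 3022 bp in the earlier list and 1777 bp in the later. All regions within 1 kb of a histone start had medians of 2779 and 1685 bp, and all such regions of other protein-coding genes 1423 and 1164 bp.

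The regions covered whole genes. Of the 56 histone genes up to 1 kb long, 55 were covered from end to end in the earlier list and 52 in the later; the other gene in the earlier list was H1f6. The 3 that were covered only in part in the later list were H2ac21 (87.0% covered), H2ac10 (91.7%) and H2ac20 (94.2%). Among 1485 other protein-coding genes of this length, 1.95% were fully covered in the earlier list and 0.741% in the later, and 5.59% and 3.97% had a region within 1 kb. Around the start site the cover of histone genes leaned downstream, and further out it leaned upstream. In the earlier list it was 88.5% at 1000 bp downstream and 77.0% at 1000 bp upstream, but 32.8% at 2000 bp downstream and 47.5% at 2000 bp upstream. In the later list it was 90.2% at 500 bp downstream and 70.5% at 500 bp upstream, 63.9% and 62.3% at 1000 bp, and 16.4% and 29.5% at 2000 bp. Other protein-coding genes leaned downstream at all of these distances. In the earlier list they had 30.5% downstream and 13.1% upstream at 1000 bp, and 10.6% and 5.05% at 2000 bp. In the later list they had 46.3% and 24.8% at 500 bp, 18.8% and 5.77% at 1000 bp, and 4.85% and 1.67% at 2000 bp. A region can cover several neighbouring histone genes, which are then each counted.

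**Figure D2:**
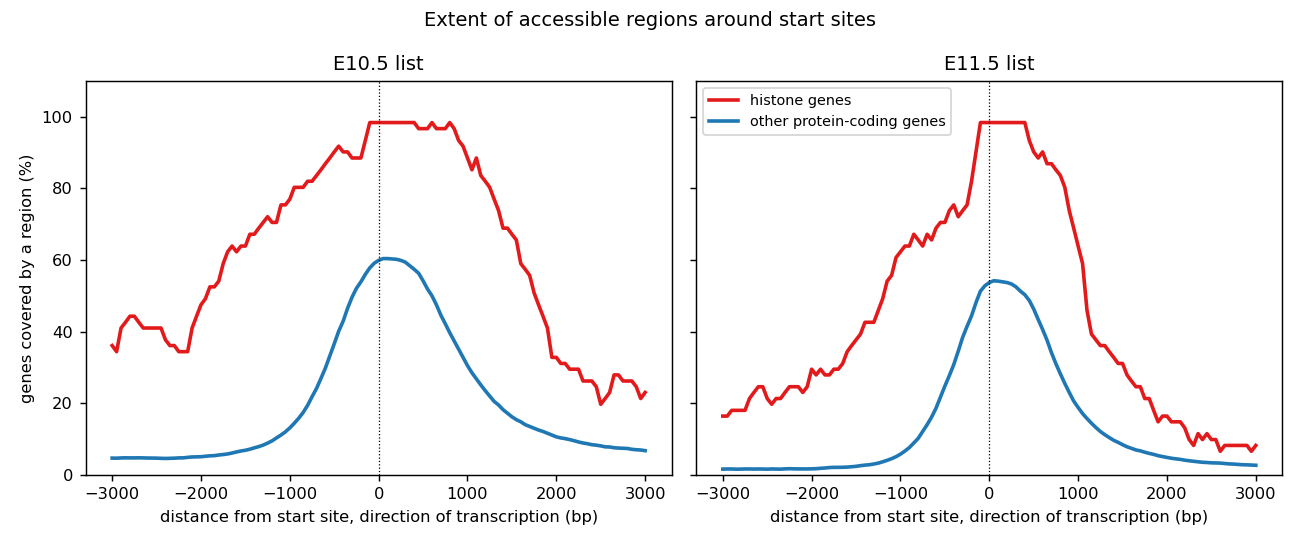
Share of genes covered by a region (vertical axis, percent) at each distance from the start site in the direction of transcription (horizontal axis, bp), for the 61 histone genes and for other protein-coding genes. Cover of histone genes stood at 98.4% over the start site in both lists, against 59.9% and 53.7% of other genes.

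The authors' signal value, which behaves as a total over the region and so grows with width, was high at nearly all of these genes. The 33 regions nearest the start sites ranged from 4848 to 29500 at E10.5, with a median of 14297. Promoter regions without histone genes, which here are all regions within 1 kb of a start site, had a median of 4306. The 41 E11.5 regions ranged from 2537 to 14102, with a median of 4776 against 2774. Taken in the same way, all histone regions within 1 kb had medians of 13468 and 4508. In percentiles of signal among all regions of the same list, the histone median stood at 99.5 in the earlier list and 91.6 in the later, and that of all promoter regions at 87.8 and 79.4. For all histone regions within 1 kb the median percentiles were 99.3 and 90.4. Percentiles from lists of unequal length cannot show whether anything changed between stages. The scaling of signal between the lists is not given in the sources used here, so values of both are set side by side and were not tested. When the E10.5 list was shortened to the 37413 regions of the E11.5 list, the E10.5 median was at percentile 98.6.

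Counted by gene, 59 of the 61 had their nearest region among the top 10% of signal in the earlier list and 42 in the later, against 31.1% and 16.9% of all protein-coding genes. The gene outside the top 10% at E10.5, besides H1f6, was H4c2 (Hist1h4b). Signal per bp was also above that of other promoter regions, with medians of 4.83 against 2.89 in the earlier list and 3.18 against 2.32 in the later. The median −log10 p of the regions was 13.8 against 9.77 in the earlier list, and 8.69 against 8.03 in the later. For all histone regions within 1 kb, the medians were 4.71 and 3.15 per bp, and 13.5 and 8.55 for −log10 p. Ranked by −log10 p the E11.5 histone median stood at percentile 83.3, and all promoter regions at 79.1.

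**Figure D3:**
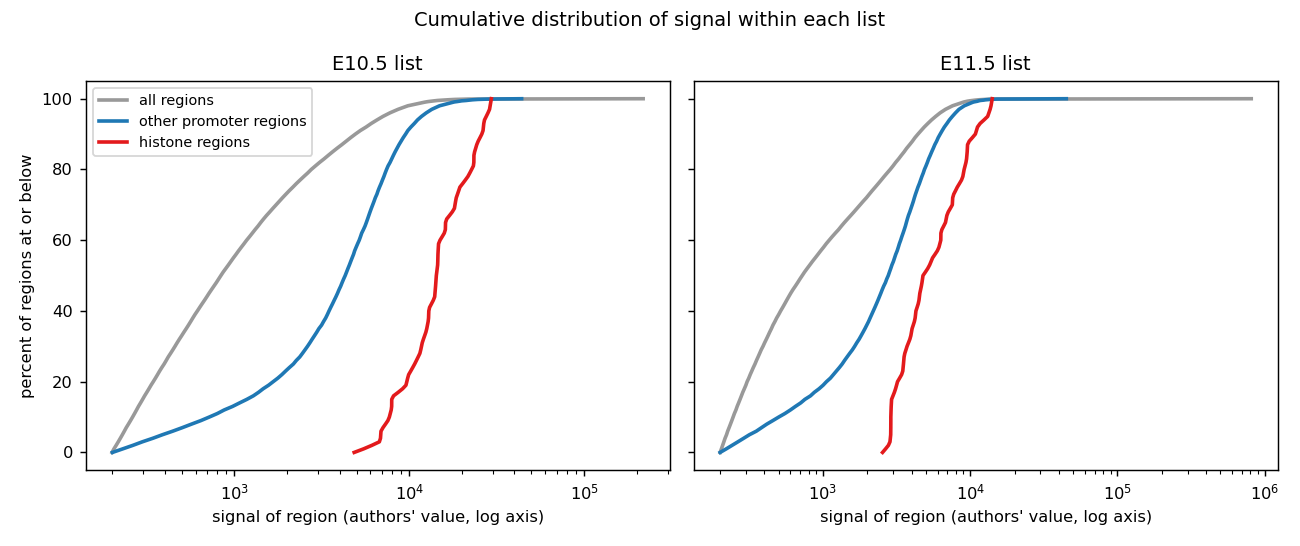
Percent of regions at or below each signal value (horizontal log axis, authors' value) in each list. Curves show the regions nearest histone start sites, all other promoter regions within 1 kb of a start site, and all regions. The histone curve lies to the right of the others over most of its range, starting at 4848 at E10.5 and at 2537 at E11.5.

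Signal was higher in regions that held more start sites. At E10.5 regions with 1 start site had a median of 9727 (14 regions), those with 2 had 15414 (12 regions) and those with 3 or more had 24507 (7 regions). The signal per bp of these groups was 4.71, 4.79 and 5.06, a narrower range than that of the widths, whose medians were 2305, 3450 and 4786 bp. At E11.5 the medians of signal were 3930 (25 regions), 9091 (13 regions) and 10835 (3 regions), and those of signal per bp 3.03, 3.53 and 3.14.

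The 5 somatic H1 genes encode linker histones. H1f1 (Hist1h1a) had the highest H1 value at E10.5, 21745, in a region of 5454 bp that also covers H4c1 and H3c1, and the lowest at E11.5, 3207, where it had a region of its own. H1f5 (Hist1h1b) had the lowest H1 value at E10.5, with 11542, and 4681 at E11.5. H1f2 (Hist1h1c) had 14297 at E10.5 and the highest H1 value at E11.5, 6788. The H1 genes stood in a different order in each list. H1f3 (Hist1h1d) had 13975 and 5237, and its 7.58 per bp was the highest signal per bp of any member at E10.5. H1f4 (Hist1h1e) had 14556 and 6324 in a region shared with the outer start of H2bc6. The summit of the H1f5 region lay 1111 bp downstream of the start in the earlier list and 1110 bp in the later, beyond the end of the gene.

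H1f6 starts at 23695811 on the plus strand of chromosome 13, in the same group as H1f2, H1f3, H1f4 and H1f1. Its nearest region lay 1649 bp away in the earlier list and 1656 bp away in the later, and no base of the gene was covered in either list. That region belongs to H4c3 (Hist1h4c), with a signal of 7950 in the earlier list and 4027 in the later. The next member on the other side, H2bc4, had 16089 and 9091. H1f6 thus stood between genes that had regions in both lists. The lack of a region says that none passed the authors' threshold and does not show that the site was closed. The germline linker histone genes elsewhere in the genome, H1f7, H1f8 and Hils1, had no region within 1 kb in either list. The other germline histone genes looked for, Hist1h2aa and Hist1h2ba, are not among the 61 genes.

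Head-to-head genes numbered 22, in 11 pairs, of which 10 joined an H2A to an H2B gene. Their start sites were 163 to 607 bp apart, with a median of 191 bp. Divergent neighbours further apart, such as H3c3 with H2bc3 and H3c1 with H1f1, were not counted as pairs. Those neighbours shared a region at E10.5 and lay in separate regions at E11.5. Both genes of a pair lay in a single region in 11 of 11 pairs in the earlier list and in 10 of 11 in the later. The exception was the pair of H2bc9 and H3c7, whose start sites are 607 bp apart: at E10.5 a single region had a signal of 14739, and at E11.5 H2bc9 had 3086 and H3c7 had 4211. The regions nearest the start sites had median widths of 3022 and 1777 bp, so starts this close would mostly share a region. The same share over all head-to-head genes was not computed. For H2ac15 and H2bc15, the closest pair, the signal was 14611 in the earlier list and 8166 in the later. Its summit lay 72 bp and 37 bp from the H2ac15 start, inside the 163 bases printed above. For H2ac12 and H2bc12 the signal was 18103 and 9535, and the summit lay 84 and 86 bp from the H2ac12 start.

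Among all H2A genes, H2ac10 (Hist1h2af) had the highest E10.5 value, 29500, and H2ac4 (Hist1h2ab) the lowest, 11907. At E11.5 H2ac24 (Hist1h2ap) was highest with 14102 and H2ac21 (Hist2h2ab) lowest with 2537. H2bc7 and H2bc8 shared the highest H2B value at E10.5, 28776, in a region that also covers H2ac7 and H2ac8. H2bc22 (Hist1h2bp) had the lowest, 12894. At E11.5 H2bc23 (Hist1h2bq) was highest with 13775, and H2bc21 (Hist2h2be) lowest with 2887.

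At E10.5 the H3 and H4 genes had the widest range of signal. H3c8 (Hist1h3g) had 29500 in that list and H3c4 (Hist1h3d) had 6833, the lowest H3 value. At E11.5 H3c15 (Hist2h3c2) was highest with 13134 and H3c2 (Hist1h3b) lowest with 2888. H4c8 (Hist1h4h) had 29500 at E10.5, and H4c18 (Hist1h4n) was highest at E11.5 with 14102. H4c2 was lowest in its class in both lists, with 4848 and 2841, ranks 10178 and 7527. It lay alone in a region 993 bp wide in the earlier list and 968 bp in the later.

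Class medians at E10.5, counted by gene, were 14297 for H1, 21460 for H2A, 16157 for H2B, 16644 for H3 and 11640 for H4. At E11.5 they were 5237, 8976, 7613, 5429 and 4152. The classes differ in how often their genes stand alone. Of the 14 regions with 1 start site at E10.5, 7 held an H4 gene, 3 an H3 gene, 3 an H1 gene, 1 an H2B gene and none an H2A gene. Within these, signal ranged from 11542 to 14297 for H1, from 6833 to 9899 for H3 and from 4848 to 12534 for H4. In this list H1 and H3 did not overlap, while H4 overlapped both. These are 3, 3 and 7 regions without replicates. At E11.5 all 3 classes overlapped in regions with 1 start site. There H1 ranged from 3207 to 6788 (4 regions), H3 from 2888 to 4776 (6 regions) and H4 from 2841 to 5548 (9 regions).

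**Figure D4:**
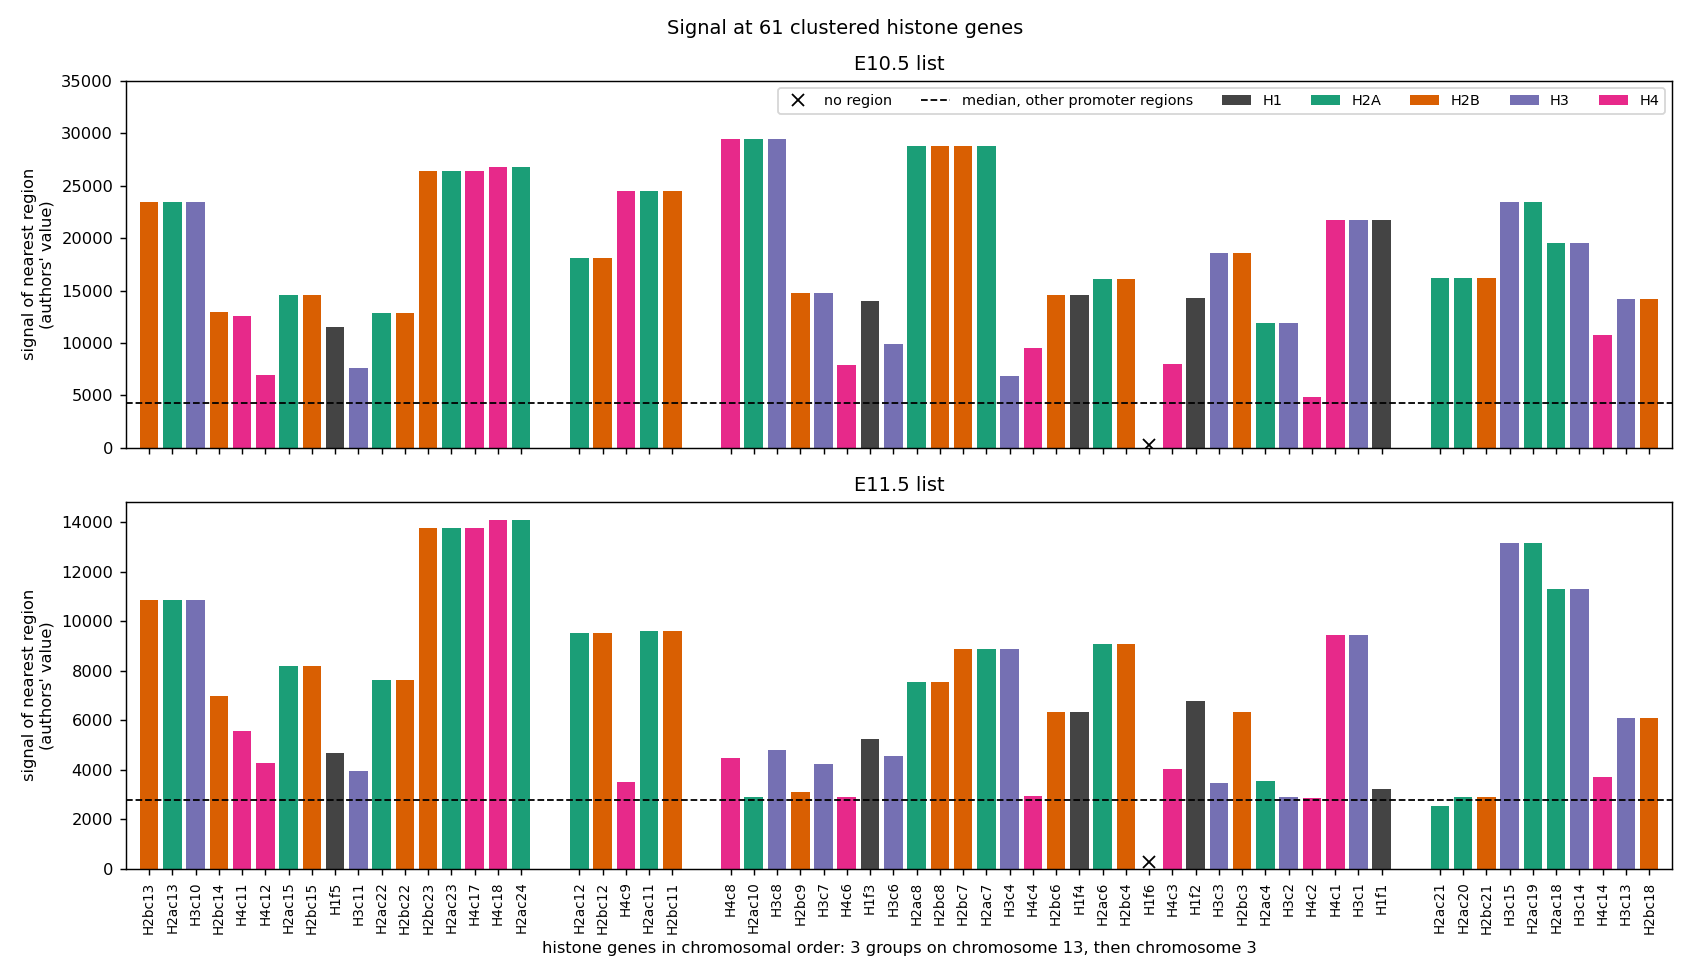
Authors' signal value of the region nearest each histone start site (bars, vertical axis starting at 0), by gene in chromosomal order, coloured by class, with the median of other promoter regions as a dashed line. Bars of equal height next to each other are genes in the same region, and H1f6 is marked as without a region in both lists.

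The strongest histone regions of both lists lay on chromosome 13. At E10.5 the region chr13:23529911-23536810, over H4c8, H2ac10 and H3c8, ranked 28 of 99356 with 29500. The region chr13:23570113-23575022, over H2ac8, H2bc8, H2bc7 and H2ac7, ranked 32. At E11.5 the region chr13:21831429-21834948, over H4c18 and H2ac24, ranked 41 of 37413 with 14102, and chr13:21809027-21812603, over H2bc23, H2ac23 and H4c17, ranked 47 with 13775. The latter 2 places had signals of 26801 and 26395 at E10.5, ranks 42 and 43.

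Some of these places are near copies of each other. Promoter windows of H4c17 and H4c18 were 99.7% identical over 299 bases, those of H3c14 and H3c15 99.6% over 285, those of H4c11 and H4c12 95.8% over 286, and those of H2ac18 and H2ac19 95.8% over 260. The copies of H4c17 and H4c18 had close values in both lists, 26395 and 26801 in the earlier and 13775 and 14102 in the later. H4c11 and H4c12 had 12534 and 6904 in the earlier list, and 5548 and 4277 in the later. The region of H3c15 and H2ac19 had 23421 and 13134, and that of H3c14 and H2ac18 had 19499 and 11301. How reads that fit several copies were counted is not given in the sources used here, so the values of these 8 genes are uncertain. The same holds for members in the same regions, namely H2bc23 and H2ac23 with H4c17, and H2ac24 with H4c18. Only promoter windows were compared, not the rest of the regions. Without the 8 genes the median percentile was 99.5 in the earlier list and 91.2 in the later. Some of their regions stayed in through neighbouring members, so these medians are not free of the copies.

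The lists overlapped at nearly all histone regions. Of the 38 E10.5 regions within 1 kb of a histone start, 34 (89.5%) shared at least 1 bp with a region of the later list, and 46 of the 46 later regions (100%) did so with the earlier list. For all promoter regions the shares were 86.0% and 98.8%. All 33 E10.5 regions nearest a start site were shared. The 4 that were not had signals of 228, 277, 312 and 331 and lay beside the main regions of H2bc6, H4c2, H1f4 and H1f3. Among the top 10% of E10.5 signal, 32 of 32 histone regions were shared, as were 99.7% of all promoter regions of that rank.

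Some broad E10.5 regions matched several narrower E11.5 regions. Of the 38 E10.5 regions, 9 overlapped 2 or more E11.5 regions, and 1 of the 46 E11.5 regions overlapped 2 at E10.5. The same counts over all promoter regions, or over regions of similar width, are not given here. These counts therefore do not set histone regions apart from others. The region over H4c8, H2ac10 and H3c8 was 6900 bp wide at E10.5 and matched 5 E11.5 regions, in which H4c8 had a signal of 4470, H2ac10 had 2882 and H3c8 had 4776. H4c9 gave a similar picture. It had 24507 at E10.5 in a region with H2ac11 and H2bc11, and 3519 at E11.5 in a region apart from theirs (9602). Regions within 1 kb of histone starts covered 108 kb in the earlier list and 78.2 kb in the later. Stage and list cannot be told apart here, since each stage is a single list.

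Other genes of the same intervals varied in how often they had a region. In the chromosome 13 interval, the 33 E10.5 regions at histone starts were 24.4% of 135 regions and held 72.0% of their summed signal, and the 40 later ones were 38.1% of 105 and held 76.9%. In the chromosome 3 interval the shares of summed signal were 86.8% and 94.6%. The 79 tRNA genes of the chromosome 13 interval, which encode the adaptors of translation, had a region within 1 kb in 71 and 52 cases, against 70.3% and 60.0% of the 408 tRNA genes of all chromosomes. The 36 vomeronasal receptor genes of the intervals had none within 1 kb in either list (0 of 36). The 49 other protein-coding genes of the intervals include these 36 receptor genes. Of the 49, 8 had a region in each list, all of them outside the receptor genes. Over all protein-coding genes the shares were 66.3% and 59.9%. Among the 8 was H4bc24 (also Hist1h2br), which the naming rule left out, in the region of H4c18 and H2ac24.

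Genes that work with the clustered histone genes were described by the same counts. All 14 genes of histone transcription and message processing, such as Npat, Slbp and Lsm11, had a region in both lists. So did 8 of 8 histone chaperone genes and 12 of 12 S phase genes, against 59.5% of all protein-coding genes. Their median percentiles of signal, counted by gene, were 93.0, 95.5 and 94.9 in the earlier list and 87.6, 94.3 and 90.1 in the later. Counted by gene as well, the clustered histone genes had medians of 99.7 and 97.1. Of 11 replication-independent histone genes, whose products are used outside S phase or for special chromatin, 10 had a region in both lists, with medians of 97.1 and 90.0. The exception was H3f3b, whose outer start in the gene table differs from that of the promoter table, where a region had signals of 8031 and 4815. H2az1 had 9853 in the earlier list and 10682 in the later, and H1f0, a linker histone of resting cells, had 12483 and 1352. The 3 replication-dependent genes outside the intervals (Hist3h2a, Hist3h2ba and Hist4h4) had regions in both lists.

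Markers of the tissue were checked in the same way. Over all protein-coding genes the shares with a region were 66.3% in the earlier list and 59.9% in the later, which is the shorter list. All 8 limb mesenchyme markers, including Prrx1 and Twist1, had a promoter region in both lists. Of 6 surface ectoderm markers, 5 had one in the earlier list (not Trp63) and 2 in the later (not Trp63, Krt5, Krt14 or Tfap2a). Of 6 endothelial markers, 4 had one in the earlier list (not Tek or Pecam1) and 2 in the later (Cdh5 and Tie1 missing too). Of 6 blood markers, 2 had one in the earlier list and 3 in the later, where Hbb-y was added, and Gata1, Ptprc and Spi1 had none. Of 6 muscle precursor markers, all had one in the earlier list and 3 in the later, without Pax3, Pax7 and Myf5. As deposited, the lists had 99427 and 37548 peaks.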

How the data were processed

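The members and gene lists were chosen with earlier results of these data known. Per the file headers, each list is a narrowPeak file on mm10, and per the submitters' processing notes the tools were cutadapt, Bowtie2, SAMtools, deepTools and Genrich, with no role or version given. The peak threshold, the way replicates were joined and any shift for Tn5 are not given in the sources used here. Each peak carries the deposited signal, a deposited −log10 p-value and a deposited score. The score is signal per bp times a constant, capped, and was not used. The q-value column holds -1 throughout.

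Peaks on chromosomes 1 to 19, X and Y (99356 and 37413) were used. Gene ends came from RefSeq (GRCm38.p6). The start site was the outer end by strand, with the strand from the RefSeq promoter table (17492 genes) or, by name, from GENCODE M1 (4043 genes, 5 of them members); 352 genes without strand were left out. The region nearest the start site stands for a gene, and shared regions were counted once in medians over regions. Motifs were exact matches. Identity was the best ungapped match over shifts of up to 50 bases. Percentiles run from the lowest signal of a list. The text names members without a region, the highest and lowest of each class, the strongest members and pairs in a region. Other genes named were chosen after their values were seen. Alternatives changed distance, threshold, overlap, ranking, strand and start sites. Functions were tested on simulated regions, with Python 3.11.15 and pandas 2.3.3. A planned comparison of protein sequences was not run.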

Additional observations from a re-analysis of the deposited data

How the results depend on the processing

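No paired analysis was possible because replicates 1 and 2 of a stage are joined in its list, which also prevented leaving either out. Over 15 settings and 7 results, 52 values stayed, which means within 1.5 times a count or equal as printed for a median percentile, and 14 moved. The count of 60 genes with a region stood with 500 bp, with the start site inside the region, with −log10 p of at least 5 and with lists of equal length. It was 61 with 2 kb and with the nearer gene end, both of which reach past H1f6 to the H4c3 region, and 55 of 56 with every start site of the promoter table, a setting added after seeing the data, as was leaving out near copies.

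The E10.5 median percentile of 99.5 was 99.1 with −log10 p of at least 5, 98.6 when the earlier list was cut to the length of the later, whether by signal or by −log10 p, 98.1 ranked by −log10 p, 98.6 ranked by signal per bp and 97.5 among promoter regions. The E11.5 median of 91.6 was 84.2 with −log10 p of at least 5, 83.3 ranked by −log10 p, 90.5 ranked by signal per bp and 78.7 among promoter regions. It was 91.2 without the genes found as near copies, some of whose regions stayed in through neighbouring members. Stricter overlap lowered the 46 shared E11.5 regions by construction, to 27 with 50% reciprocal overlap, 28 when 200 bp centred on the summits had to overlap, and 23 when summits had to lie no more than 100 bp apart. The depth of the libraries is not known, so its effect on these values was not tested.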

Other observations

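Of the regions within 1 kb of the tRNA genes of the chromosome 13 interval, 67 of 68 in the earlier list and 49 of 51 in the later were not among the regions at histone starts.

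H2bc6 spans 37455 bp in the gene table, with start sites in the promoter table at 23621094 and 23585970 on chromosome 13. The outer start shares the H1f4 region (signals of 14556 and 6324), and the inner start had regions of its own with signals of 9849 and 4632. These were the strongest regions of the chromosome 13 interval that were not counted at a histone start.

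The pseudogenes H2ac14 and H2ac5-ps lay within 1 kb of regions in both lists, with signals of 12962 and 6977 for H2ac14 and 18548 and 6308 for H2ac5-ps. These regions are those of H2bc14 and of H2bc3, which are members.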
